A study of Mus musculus with 28 samples.

Results

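The day 5 wound was set against the start of the series. The members of the comparison were the 4 libraries labelled day 5 and the 4 labelled day 0, taken by their labels, so 8 of the 28 libraries entered, and all genes of the count table were considered. Bulk RNA sequencing had been run on total RNA of mouse skin over natural wound healing, at 7 time points with 4 libraries each. Both groups were C57BL/6J mice with an intact Mlkl gene, the gene of the necroptosis effector the study is about, and the labels name no transgene or drug. Per the study's methods the mice were 8 weeks old, of both sexes and housed individually after injury, a 6 mm punch was taken through the shaved back skin down to the fascia, and the whole wound site with scab and epithelial margin was collected. Day 0 was the control group of the labels, and the study's own text begins its count at day 1. The transcript Xist, made from the inactive X chromosome, had at most 6 counts in any of the 8 libraries, and the Y-linked Ddx3y lay between 68.5 and 96.2 CPM (counts scaled to library size by TMM over the 28 libraries). By these transcripts none of the 8 libraries looked female, although the methods name both sexes for the experiments. No label says whether the 4 libraries of a day came from separate animals, so p-values measure only the spread between these samples, which may be technical. In such bulk samples fewer cells of a type and less RNA per cell cannot be told apart.

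An excisional wound passes through overlapping stages. Neutrophils and then macrophages enter and clear the clot. In the proliferative stage keratinocytes move in from the edge, fibroblasts fill the gap with a provisional matrix and new vessels grow into it. Later the matrix is remodelled by proteases and crosslinking enzymes, and myofibroblasts pull the margins together. Skin lost with the punch also takes away hair follicles, sebaceous glands, nerve, fat and the thin striated muscle under the mouse dermis.

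The 8 libraries held 36706513 to 40492661 counts each. Skin markers were present in all of them: the basal keratin Krt14 lay at 865 to 2127 CPM at day 0 and 1497 to 1854 CPM at day 5, and Col1a1, the main collagen of the dermis, at 4066 to 16771 and 10593 to 11181 CPM. The day 0 libraries varied more: the biological coefficient of variation was 23.2% at day 0 and 10.6% at day 5, against 5.64 to 8.67% on the other days. Within day 0, replicates 2 and 3 were alike and replicates 1 and 4 stood apart from them. Dbp, an output gene of the circadian clock, was at 114, 18.8, 17.3 and 169 CPM in day 0 replicates 1 to 4, and its counterpart Arntl at 12.3, 45.6, 47.3 and 6.84 CPM, so the libraries of high Dbp were those of low Arntl. The same pairs differed in genes of the cell cycle, in muscle regeneration genes and in Col1a1, and for several lists the count without either pair is given beside the main one. How the pairs arose was not tested. Within day 5, replicate 4 stood apart: its difference from the other 3 libraries changed by -0.149 log2 CPM per doubling of gene length, while the other libraries of both days lay between -0.053 and 0.058.

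**Figure D1:**
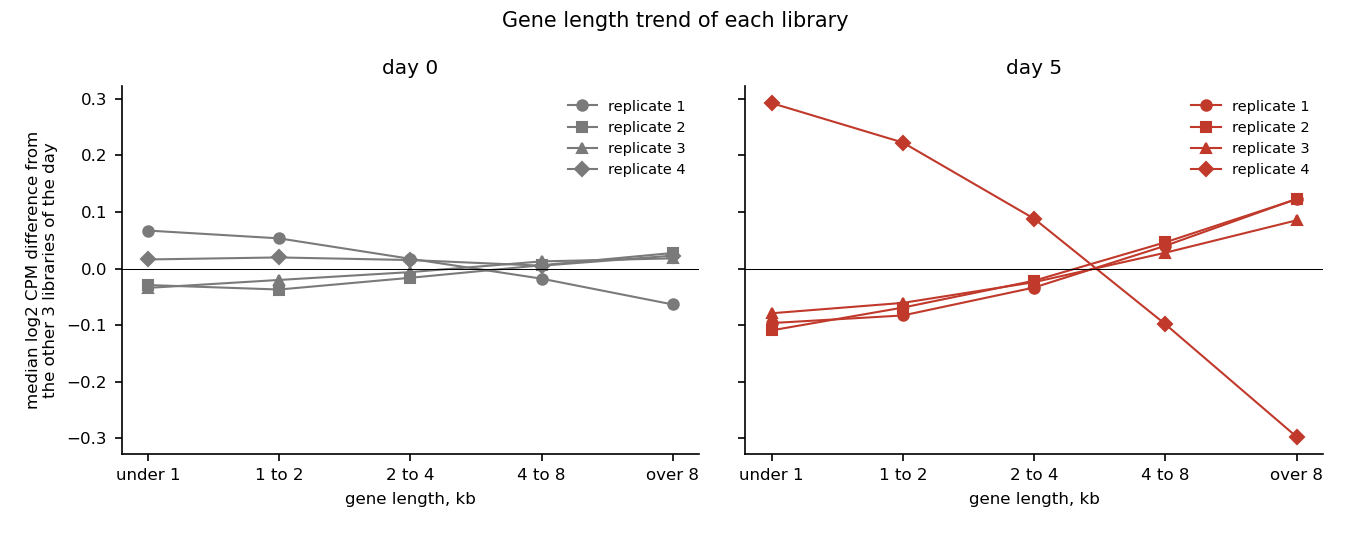
Median log2 CPM difference of each library from the other 3 of its day (y axis) in 5 classes of gene length in kilobases (x axis), for day 0 (left) and day 5 (right), with 1 line for each library. Day 5 replicate 4 runs from 0.29 for genes under 1 kb down to -0.30 for genes over 8 kb, and no other line leaves the range from -0.11 to 0.12.

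Of 29068 genes in the table, 16690 had enough counts to be tested between day 5 and day 0. Genes were called at a Benjamini-Hochberg adjusted p under 0.05 over all of these (edgeR, quasi-likelihood test), and "rose" and "fell" stand only for such calls; "rose by" or "fell by" a number without unit gives the log2 fold change. By this rule 3837 genes (23.0%) rose and 4395 (26.3%) fell. By the study's own criteria, a log2 fold change beyond 1.5 with an unadjusted P under 0.05, 797 genes (4.78%) were higher and 1244 (7.45%) lower. All 4 day 5 libraries lay above all 4 day 0 libraries for 3948 genes (23.7%) and below them for 4117 (24.7%). The median log2 fold change over all genes was -0.04. The share of a list that passed is therefore to be read against 23.0% higher and 26.3% lower over all genes. With 4 libraries against 4, the exact permutation test of a single gene cannot go below p = 0.0286 (two-sided), which every gene without overlap between the groups reaches.

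The 46 lists of genes used to describe the programs held 1117 tested genes. The 15 largest rises among genes whose libraries did not overlap between the days and that reached 10 CPM on average on the higher day were those of Ucp1, Cxcl3, Acod1, Itih4, Sprr2i, Cxcl5, Trem1, Sprr2e, Sprr2d, Gys2, Cpn2, Cxcl2, Csf3, Chil3 and Cxcr2. They hold neutrophil chemokines and receptors, small proline-rich proteins of the epidermis and genes of thermogenic fat. Acod1, which makes the macrophage metabolite itaconate, went from 0.857, 0.153, 0.105 and 0.938 CPM at day 0 to 223, 206, 203 and 204 CPM at day 5. Itih4, an acute-phase heavy chain of the inter-alpha-trypsin inhibitor family, went from 0.779, 0.408, 0.523 and 2.81 to 447, 422, 418 and 402 CPM (log2 fold change 8.55, or 9.52 without day 0 replicate 4). The 15 largest falls were those of hair keratins and keratin-associated proteins, among them Krtap11-1, Krt87, Krt81, Krt34 and Krt72, together with Gm11562 and Gm10229, of which the table gives only the name.

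**Figure D2:**
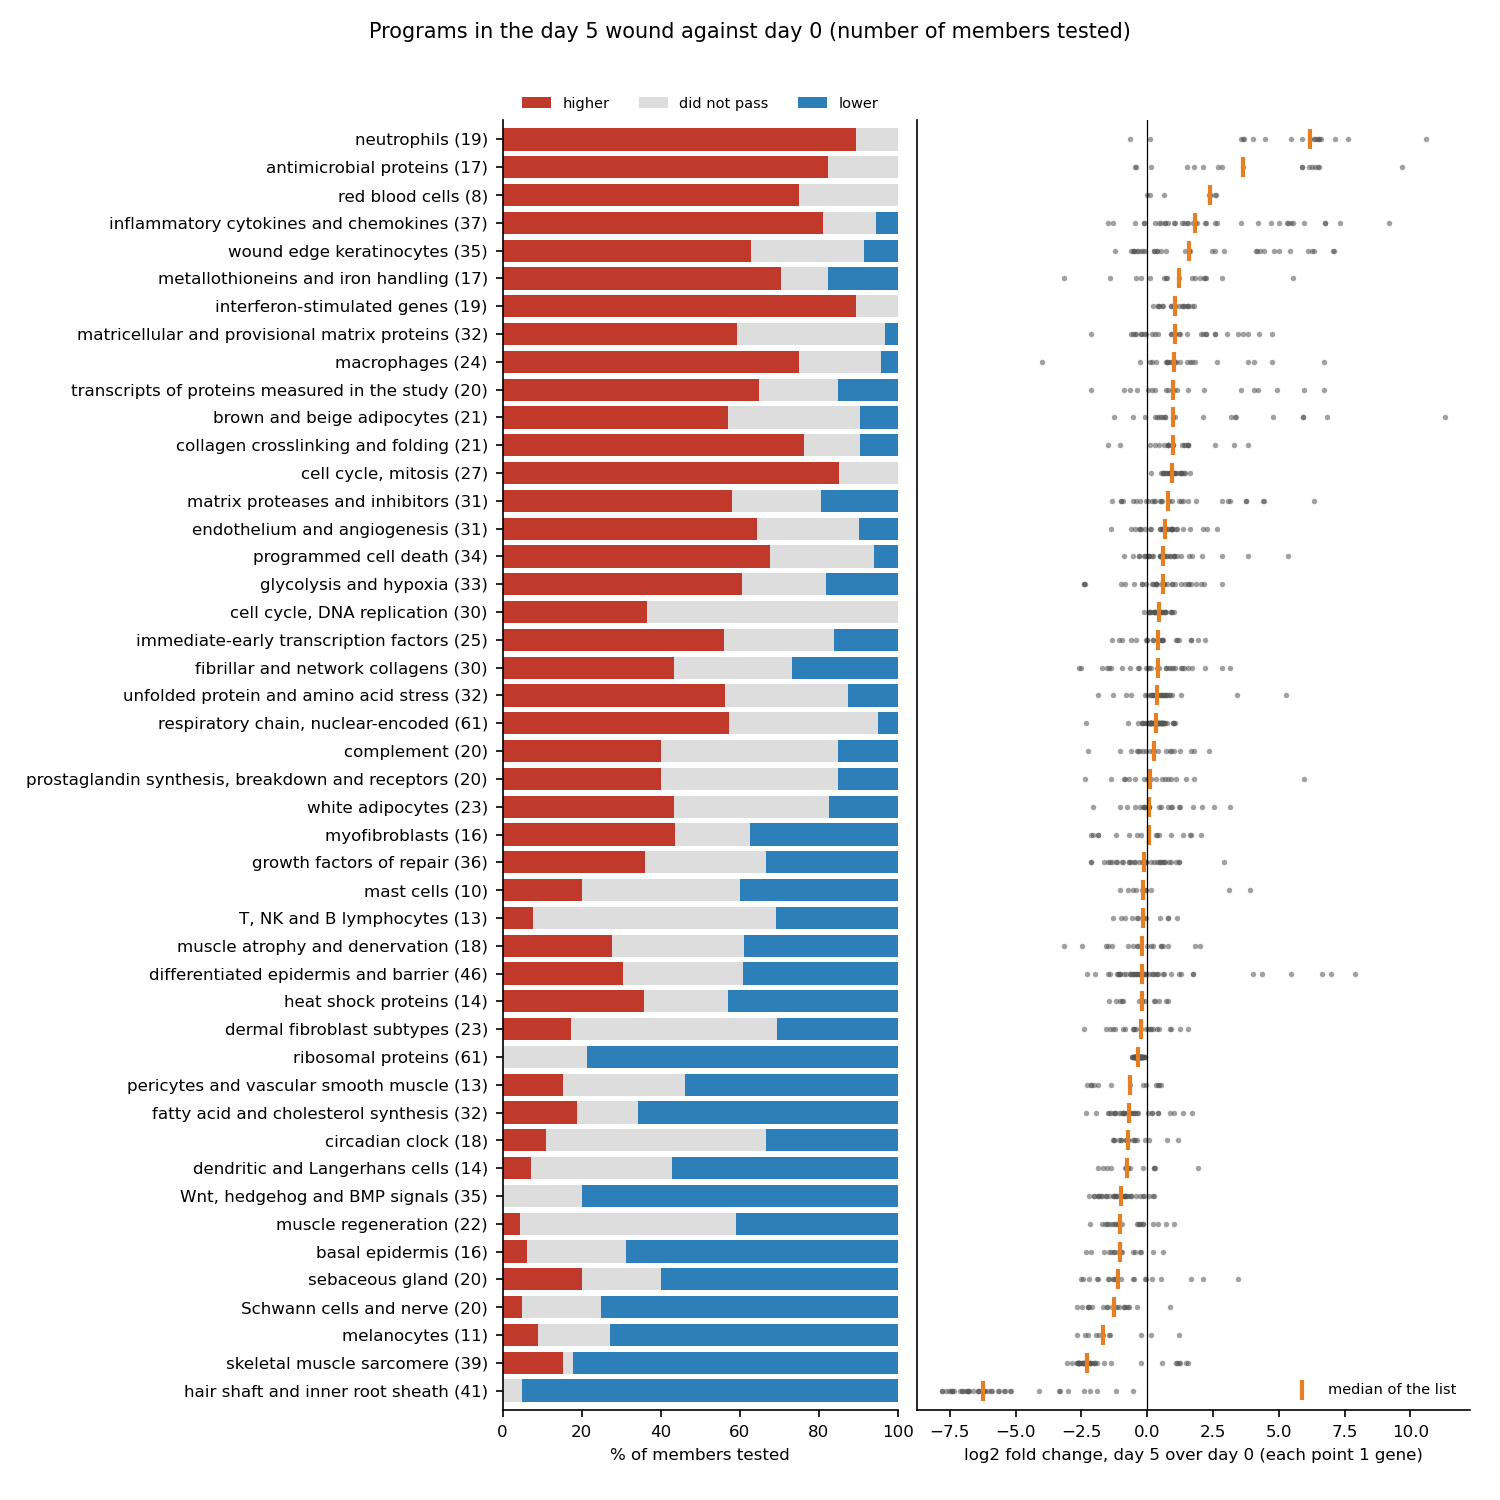
Left, share of the tested members of each of the 46 lists that were higher, were lower or did not pass at day 5 against day 0 (x axis, percent; number of members tested in brackets). Right, log2 fold change of each member (grey points) with the list's median (orange bar); the lists run from neutrophils at the top (17 of 19 higher) to hair shaft and inner root sheath at the bottom (39 of 41 lower).

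Neutrophil genes had the highest median of the 46 lists. Of 19 tested members 17 rose, 0 fell and 2 did not pass, with a median log2 fold change of 6.17, or 5.88 with 2 members that had almost no count at day 0 set at their lower bound. S100a8 and S100a9, the subunits of calprotectin, lay far above every day 0 library at day 5. S100a8 stood at 7.95, 1.99, 1.41 and 9.35 CPM in day 0 replicates 1 to 4 and at 589, 397, 466 and 474 CPM in day 5 replicates 1 to 4. S100a9 stood at 15.98, 5.96, 4.99 and 20.1 and 1053, 859, 981 and 1017 CPM, the day 0 libraries of low values being replicates 2 and 3 in both. Mmp8, the neutrophil collagenase, went from 0.961, 0.459, 0.209 and 0.276 to 40.3, 37.5, 38.8 and 39.8 CPM (log2 fold change 6.33, SE 0.33, adjusted p = 7.76e-07), and without day 0 replicate 1 its log2 fold change was 6.92. The chemokine receptor Cxcr2 went from 1.33, 0.484, 0.889 and 0.745 to 84.1, 81.5, 80.8 and 88.6 CPM. Where at least 10 counts were asked in every library, 9 members rose, since most of these genes are near 0 at day 0. Ngp, a protein of the specific granules, and Ly6g, the surface marker used to gate these cells, had no count in any day 0 library. Against a floor of 3 counts per library Ngp was at least 62.6-fold and Ly6g at least 7.99-fold higher at day 5. Elane, an enzyme of the primary granules made in the bone marrow, lay at 0.338 to 0.484 CPM at day 0 and 0.156 to 0.405 CPM at day 5 and did not pass. By limma on log2(FPKM + 1) Elane was lower (-0.19, adjusted p = 0.0368).

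Of 37 tested chemokines and cytokines 30 rose, 2 fell and 5 did not pass (median 1.82). The ligands of Cxcr2 moved by the largest amounts. Cxcl3 went from 0.390, 0, 0.0523 and 0.441 CPM in day 0 replicates 1 to 4 to 116, 119, 127 and 151 CPM at day 5 (log2 fold change 9.18, SE 0.44). Cxcl2 went from 3.38, 0.611, 0.183 and 9.49 to 386, 319, 341 and 431 CPM, and Cxcl5 from 1.48, 0.102, 0.183 and 0.138 to 72.5, 66.7, 75.8 and 93.4 CPM. Cxcl2 was highest at day 0 in replicates 4 and 1, and Cxcl5 in replicate 1. The log2 fold change of Cxcl2 was 6.76, or 8.04 without day 0 replicate 4, and that of Cxcl5 was 7.31, or 9.05 without day 0 replicate 1. Csf3, which drives granulocyte output, rose by 6.73 on the log2 scale. Il1b, an early inflammatory cytokine, stood at 13.02, 8.28, 7.66 and 18.5 CPM at day 0 and 597, 496, 569.7 and 575 CPM at day 5. Il6 rose by 4.20 and Tnf by 3.58, and without day 0 replicate 1 the value of Il6 was 5.10. Ccl27a, made by resting keratinocytes, fell by 1.51. The other member that fell, Ccl17, a chemokine for T cells, fell by 1.29 (adjusted p = 0.0227) and did not pass without day 0 replicate 4 or without day 5 replicate 1 or 2 (adjusted p = 0.0502 to 0.0584).

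**Figure D3:**
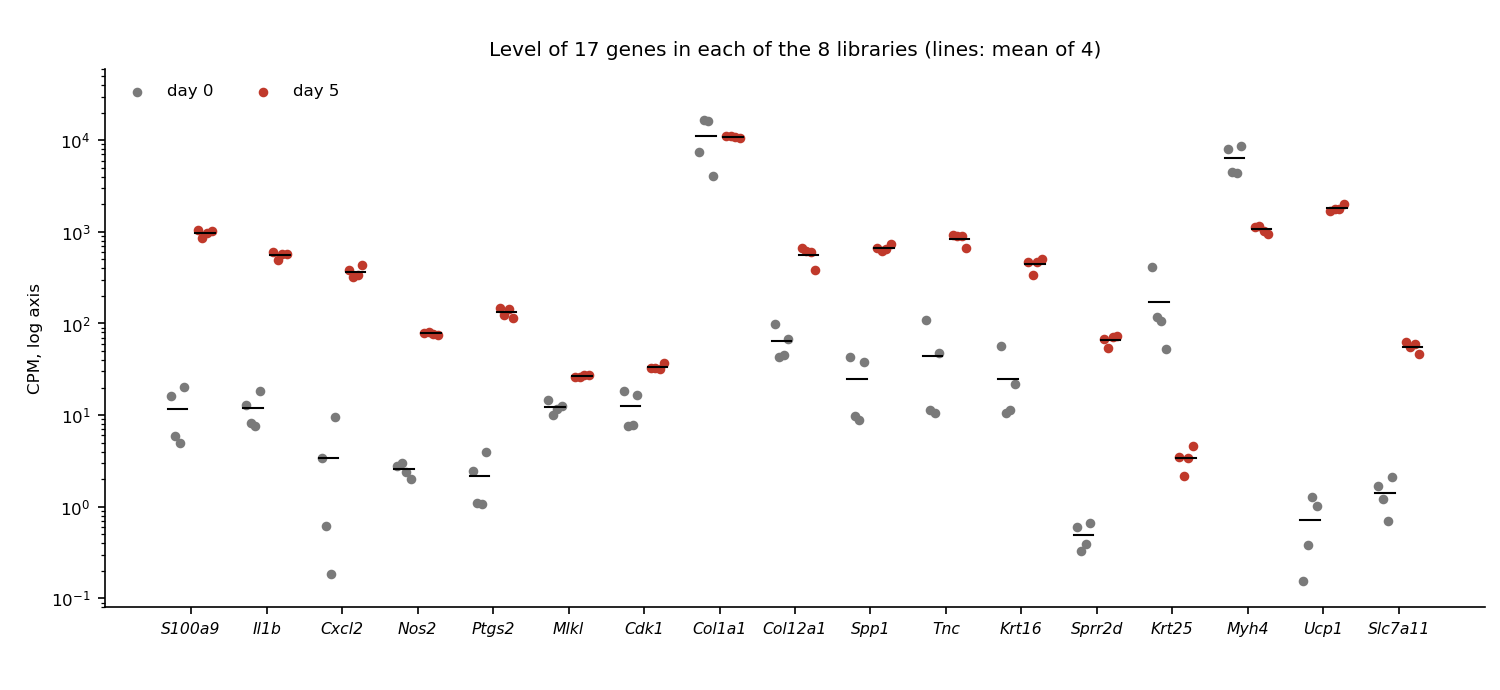
CPM (y axis, log scale) of 17 genes in the 4 day 0 libraries (grey) and the 4 day 5 libraries (red), with black lines at the means. Ucp1 runs from about 1 CPM or less to 1687 CPM or more, Krt25 and Myh4 lie lower at day 5, and the day 5 values of Col1a1 fall inside the range of day 0.

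Macrophage genes gave 18 of 24 higher, 1 lower and 5 not passed, with a median of 1.03. Cd68, a pan-macrophage protein, went from 134, 79.3, 81.7 and 102 to 273, 282, 279 and 306 CPM. Chil3, a chitinase-like lectin, rose from 4.47, 0.102, 0.470 and 1.43 to 181, 165, 159.9 and 182 CPM (log2 fold change 6.72, or 8.01 without day 0 replicate 1). Nos2, which makes nitric oxide from arginine, rose from 2.78, 3.03, 2.40 and 2.01 to 79.3, 81.1, 77.5 and 74.1 CPM (log2 fold change 4.91, SE 0.12, adjusted p = 3.23e-08). Nos2, which is not in this list, is commonly used as a mark of M1 and Chil3 of M2 macrophages. Neutrophil genes rose in the same libraries, and which cells held these transcripts was not tested. Retnla, another M2 mark that is also made by resident cells of the dermis and fat, was the member that fell, from 171, 509, 511 and 228 to 19.98, 21.7, 18.3 and 29.3 CPM. Cd163, a scavenger receptor, rose by 0.79 (adjusted p = 0.0415), and its day 0 libraries were spread from 62.7 to 177 CPM; it did not pass without day 0 replicate 1 or without any single day 5 library (adjusted p = 0.0623 to 0.0924). Lyve1, found on resident macrophages and lymph vessels, was at 29.3 to 75.6 CPM at day 0 and 42.8 to 45.9 CPM at day 5 and did not pass. Its log2 fold change was -0.66 (adjusted p = 2.55e-05) without day 0 replicates 1 and 4 and 0.36 (adjusted p = 0.024) without replicates 2 and 3.

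Antimicrobial proteins showed 14 of 17 higher, 0 lower and 3 not passed (median 3.62), and 2 were lower without day 0 replicate 4. Their median was 5.19 without day 0 replicate 2 and 2.07 by limma on FPKM. Where at least 10 counts were asked in every library it was 2.40, with 9 members higher. Lcn2, which withholds iron from bacteria, went from 10.9, 9.02, 7.74 and 5.60 to 478, 464, 446 and 576 CPM. Reg3g, a lectin directed at bacterial walls, had no count at day 0 and was at least 33.1-fold higher. Saa1 and Saa2, acute-phase apolipoproteins, rose by 6.50 and 5.89, or by 7.67 and 9.55 without day 0 replicate 1. Their near-identical sequences can share reads, so the split between them is uncertain. Interferon-stimulated genes gave 17 of 19 higher and 2 not passed with a median of 1.05. Ifit1 lay between 12.7 to 25.7 CPM at day 0 and between 45.4 to 50.02 CPM at day 5, and Isg15 rose by 1.56. It was 19 higher (median 1.75) without day 0 replicates 1 and 4 and 16 higher (median 0.60) without replicates 2 and 3. Complement was mixed, 8 of 20 higher, 3 lower and 9 not passed (median 0.25). Its receptor C5ar1 rose by 2.35 and factor B, Cfb, by 1.67, while Cfd, made by fat cells, fell by 1.03 and C3 did not pass at 946, 2175, 2060.1 and 807 CPM at day 0 and 2014, 1946, 1901 and 1415 CPM at day 5. For C3 the log2 fold change was -0.19 (adjusted p = 0.194) without day 0 replicates 1 and 4 and 1.04 (adjusted p = 0.000293) without replicates 2 and 3. In complement 5 genes fell without day 0 replicate 4. Without day 0 replicates 1 and 4 the complement count was 8 higher and 9 lower, and without replicates 2 and 3 it was 12 higher and 2 lower.

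Of 14 dendritic and Langerhans cell genes 1 rose, 8 fell and 5 did not pass (median -0.75). Cd207, the langerin of Langerhans cells, went from 19.3, 23.999, 22.6 and 20.7 to 6.57, 6.59, 5.62 and 5.13 CPM, and Xcr1, the receptor of cross-presenting dendritic cells, fell by 1.68. The member that rose was Ccr7, the receptor for migration to lymph nodes (log2 fold change 1.92). Lymphocyte genes gave 1 higher, 4 lower and 8 not passed of 13 (median -0.16), where Cd3g of the T cell receptor complex fell by 0.99 and Cd4, which macrophages can also carry, rose by 1.15. Mast cell genes gave 2 higher, 4 lower and 4 not passed of 10 (median -0.14). The protease Mcpt4 fell by 0.71, while Hdc, which makes histamine and is also used by neutrophils, rose from 13.2, 6.70, 8.44 and 17.9 to 175, 164, 180.4 and 178 CPM.

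Genes of programmed cell death, the subject of the study, rose in 23 of 34 cases and fell in 2, with 9 not passed and a median of 0.60. The number that fell was 4 without day 0 replicate 4. Mlkl stood at 14.6, 9.96, 11.6 and 12.5 CPM in day 0 replicates 1 to 4 and at 25.8, 25.8, 27.1 and 27.5 CPM in day 5 replicates 1 to 4, a log2 fold change of 1.12 (SE 0.11, adjusted p = 3.55e-05; exact permutation p = 0.0286). Its range did not overlap between the days. Ripk3, the kinase that acts on Mlkl, went from 14.004, 7.9995, 7.005 and 9.79 to 31.05, 30.9, 33.5 and 33.1 CPM (log2 fold change 1.72). Nlrp3, the inflammasome sensor, moved most, from 1.35, 1.45, 1.99 and 2.04 to 74.3, 66.9, 73.7 and 63.4 CPM. The pore protein Gsdmd rose by 0.74. Bcl2, an inhibitor of apoptosis, fell by 0.87. Trp53, which codes for p53, did not pass at a log2 fold change of 0.04 (SE 0.08). Many of these genes are also expressed by macrophages and neutrophils, whose markers rose in the same libraries, and their part in these changes was not tested.

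Prostaglandin genes gave 8 of 20 higher, 3 lower and 9 not passed (median 0.10). Ptgs2, the inducible cyclooxygenase, stood at 2.47, 1.10, 1.07 and 3.92 CPM at day 0 and 147, 124, 144 and 115 CPM at day 5 (log2 fold change 5.95, SE 0.37). The constitutive Ptgs1 fell by 0.83 and the PGE2 synthase Ptges rose by 0.80. Hpgd, which breaks prostaglandins down, fell by 1.38 (adjusted p = 0.0256), and its day 0 libraries stood at 29.6, 116, 107 and 29.6 CPM, against 23.6 to 29.2 CPM at day 5. The call was lost without any 1 of several libraries: without day 0 replicate 2 the log2 fold change was -1.03 (adjusted p = 0.0676), without day 0 replicate 3 it was -1.11, and without any single day 5 library the adjusted p was 0.0583 to 0.0703. It did not pass either by limma on FPKM (adjusted p = 0.0771) or with replicate number as a block (adjusted p = 0.0518). Without both day 0 replicates 2 and 3 the log2 fold change was -0.12 (adjusted p = 0.366). Among the PGE2 receptors Ptger2 rose by 1.76 and Ptger3 fell by 2.35. Of 20 tested transcripts whose proteins were also assayed in the project, 13 rose, 3 fell and 4 did not pass (median 0.99). This list was chosen by the study, partly on these samples, so its direction is not independent evidence. Beside those named, Vegfa rose by 0.95, the integrin Itgam by 2.16 and Mmp9 by 1.54, while Egf fell by 2.13 and the estrogen receptor Esr1 by 0.64. Gapdh, a common reference gene with many pseudogenes that can take its reads, did not pass, at 112 to 158 CPM at day 0 and 149.7 to 160.0 CPM at day 5. Without day 0 replicates 1 and 4 it was higher (log2 fold change 0.49, adjusted p = 0.000124), and without replicates 2 and 3 its value was -0.03 (adjusted p = 0.797).

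Genes of mitosis rose, from a day 0 level that differed between the pairs of libraries. Of 27 mitosis genes 23 rose, 0 fell and 4 did not pass, with a median of 0.93. Promoters of such genes are known for CHR elements (TTTGAA or TTCGAA) and CCAAT boxes, which the DREAM complex and NF-Y read. The 250 bases before the start of Cdk1, Ccnb1 and Mki67 (RefSeq, GRCm38.p6) are shown since these are the kinase, the cyclin and the proliferation marker of the list. All 3 genes lie on the minus strand, at chr10:69352913-69353162, chr13:100786487-100786736 and chr7:135716380-135716629. Capitals mark CHR and CCAAT matches on either strand.
Cdk1: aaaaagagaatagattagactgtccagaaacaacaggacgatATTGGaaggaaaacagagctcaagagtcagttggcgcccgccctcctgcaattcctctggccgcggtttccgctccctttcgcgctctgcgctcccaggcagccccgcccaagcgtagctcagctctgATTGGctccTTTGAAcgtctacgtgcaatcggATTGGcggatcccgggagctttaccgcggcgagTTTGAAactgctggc
Ccnb1: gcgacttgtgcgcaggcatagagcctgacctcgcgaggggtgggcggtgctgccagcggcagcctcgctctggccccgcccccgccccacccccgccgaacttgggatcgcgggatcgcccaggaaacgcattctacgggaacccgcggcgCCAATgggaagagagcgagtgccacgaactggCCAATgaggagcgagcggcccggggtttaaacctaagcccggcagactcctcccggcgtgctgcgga
Mki67: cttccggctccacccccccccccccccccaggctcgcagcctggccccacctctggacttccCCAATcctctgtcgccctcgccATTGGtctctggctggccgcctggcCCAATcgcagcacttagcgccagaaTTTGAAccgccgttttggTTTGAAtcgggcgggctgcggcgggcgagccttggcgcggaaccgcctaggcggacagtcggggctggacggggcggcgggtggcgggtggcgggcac
Cdk1 and Mki67 each held 2 CHR and 3 CCAAT matches, and Ccnb1 held 0 and 2. A window was found for 18 of the 23 genes that rose. A CCAAT box stood in 15 of these (83.3%) and in 33.8% of all 32851 windows of this length, and a CHR in 7 (38.9%) against 17.1%. Of the 21 tested mitosis genes with a window, whether they rose or not, 18 held a CCAAT box (85.7%) and 8 a CHR (38.1%). These matches describe the letters and do not show a bound factor.

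Cdk1 was at 18.3, 7.52, 7.71 and 16.4 CPM in day 0 replicates 1 to 4 and at 32.99, 32.6, 31.6 and 37.1 CPM at day 5 (log2 fold change 1.42, SE 0.28, adjusted p = 0.00203). Ccnb1 was at 17.3, 8.92, 8.86 and 16.5 and 24.6, 23.1, 24.1 and 26.9 CPM, and Bub1, a spindle checkpoint kinase, at 5.46, 1.99, 2.48 and 5.13 and 12.3, 11.97, 11.2 and 11.6 CPM. In each of them day 0 replicates 1 and 4 held more than replicates 2 and 3, and all day 5 libraries lay above all day 0 libraries. Mki67 did not pass (log2 fold change 0.58, adjusted p = 0.101). Its day 5 values were 132, 129, 134 and 70.1 CPM in replicates 1 to 4, so the library with the length trend held the low value, and day 0 ranged from 53.3 to 107 CPM. Without day 0 replicate 1 its log2 fold change was 0.78 (adjusted p = 0.0382). Without day 5 replicate 4 it was 0.77 (adjusted p = 0.0334). Mki67 also passed by DESeq2 (adjusted p = 0.0457) and in a fit of all 28 libraries (0.00568).

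Of 30 DNA replication genes 11 rose, 0 fell and 19 did not pass (median 0.43). The ribonucleotide reductase subunit Rrm2 rose by 0.92, the clamp Pcna by 0.38, and the helicase subunit Mcm2 did not pass at 33.5, 16.7, 18.4 and 31.8 CPM at day 0 and 31.2, 31.4, 32.2 and 29.7 CPM at day 5. For Mcm2 the log2 fold change was 0.85 (adjusted p = 7.4e-06) without day 0 replicates 1 and 4 and -0.08 (adjusted p = 0.47) without replicates 2 and 3. The count of replication genes depended on the day 0 libraries. It was 27 higher and 0 lower without day 0 replicates 1 and 4, and 6 higher and 1 lower without replicates 2 and 3. Leaving out any single library gave 5 to 17 higher. The mitosis count moved less, 26 and 21 higher with 0 lower.

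**Figure D4:**
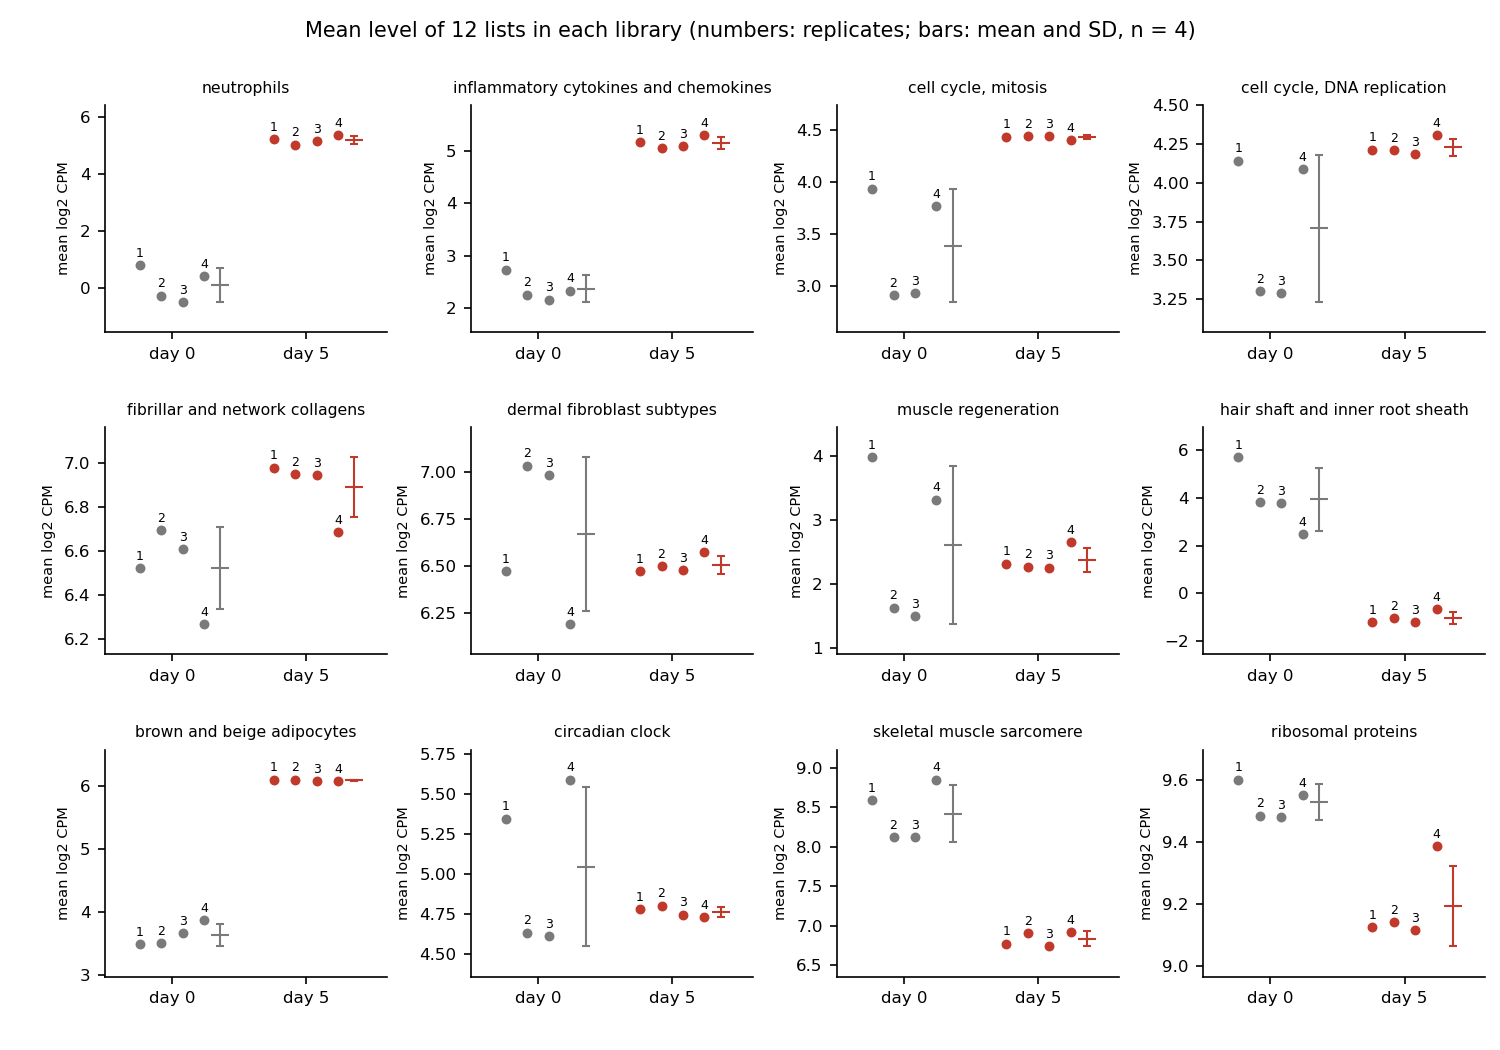
Mean log2 CPM (y axis) of the members of 12 lists in each day 0 library (grey) and day 5 library (red), labelled by replicate number, with the mean and SD of 4 beside them. Day 0 replicates 1 and 4 lie apart from replicates 2 and 3 in the cell cycle, muscle regeneration and clock lists, while neutrophil, cytokine, hair and brown fat levels do not overlap between the days.

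Of 30 collagen genes 13 rose, 8 fell and 9 did not pass (median 0.40). Without day 0 replicates 1 and 4 the count was 16 higher and 11 lower (median 0.39), and without replicates 2 and 3 it was 18 higher and 6 lower (median 0.80). Col1a1 and Col3a1, the main fibrillar collagens, did not pass. Col1a1 was at 7459.8, 16771, 16355 and 4066 CPM in day 0 replicates 1 to 4 and at 11181, 11114, 10866 and 10593 CPM at day 5, so the day 5 level lay between the day 0 pairs. The log2 fold change of Col1a1 was -0.57 (adjusted p = 7.12e-06) without day 0 replicates 1 and 4 and 0.92 (adjusted p = 0.00357) without replicates 2 and 3. Col12a1, a fibril-associated collagen of tissue under tension, rose from 98.1, 42.7, 45.8 and 68.6 to 659, 619, 603 and 383 CPM (log2 fold change 3.14). The minor fibrillar chains Col5a3 and Col24a1 rose by 2.21 and 2.85. Basement membrane chains Col4a6 and Col4a3 fell by 2.50 and 1.71, and the network collagen Col8a2 fell by 2.60. Col4a3 did not pass without day 5 replicate 4 (adjusted p = 0.0564), by limma on FPKM (0.071) or without day 0 replicates 2 and 3, where its log2 fold change was -0.32 (adjusted p = 0.258). The low value of Col12a1 at day 5 was in replicate 4, and leaving that library out gave a log2 fold change of 3.29.

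Provisional matrix and matricellular proteins gave 19 of 32 higher, 1 lower and 12 not passed (median 1.04). Spp1, osteopontin, stood at 42.8, 9.68, 8.83 and 37.8 CPM at day 0 and 669, 614, 644 and 734 CPM at day 5. Tnc, tenascin C, went from 109, 11.3, 10.5 and 47.3 to 929, 898, 891 and 669 CPM, with a log2 fold change of 4.25, or 5.19 without the high day 0 replicate 1. Thbs1, thrombospondin 1, rose by 3.81 (SE 0.33) and Postn, periostin, by 2.03 (SE 0.18). Fibronectin, Fn1, did not pass at 566, 1288, 1246 and 387 CPM at day 0 and 1874, 1861, 1779.7 and 1060.3 CPM at day 5 (log2 fold change 0.90, adjusted p = 0.0699). It passed as higher by DESeq2, voom and edgeR without a filter (adjusted p = 0.0486, 0.0299 and 0.0483). It did so in a fit of all 28 libraries (0.00108), with the length trend of every library taken out (0.0428) and with replicate number as a block (0.0108). It also passed without day 0 replicate 2 or 3 (adjusted p = 0.0325 and 0.041), and without both its log2 fold change was 1.78 (adjusted p = 0.000227). Fmod, fibromodulin of resting collagen fibrils, was the member that fell, by 2.12, and without day 0 replicate 4 the number that fell was 4.

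Proteases and their inhibitors gave 18 of 31 higher, 6 lower and 7 not passed (median 0.77). Without day 5 replicate 1, 2 or 3 the count of members that fell was 3. The stromelysin Mmp10 rose by 4.42 (5.13 without day 0 replicate 1) and the collagenase Mmp13 by 3.07. The inhibitor Timp1 went from 20.2, 5.17, 5.07 and 9.91 to 208, 187, 198 and 262 CPM, a rise of 4.39 that came to 4.98 without day 0 replicate 1. Timp3, the inhibitor bound to the matrix, fell from 537, 525, 494 and 550.2 to 216, 219, 205 and 191 CPM. Prss35, an inactive serine protease homologue, rose by 3.73. Enzymes of collagen folding and crosslinking gave 16 of 21 higher, 2 lower and 3 not passed (median 0.98). Plod2, the lysyl hydroxylase of telopeptide crosslinks, went from 6.86, 4.51, 5.85 and 6.24 to 63.6, 53.8, 58.5 and 58.05 CPM. The prolyl hydroxylase P4ha3 rose by 3.83 (4.70 without day 0 replicate 1), and of the lysyl oxidases Loxl3 rose by 2.59 and Lox by 1.55.

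Myofibroblast genes gave 7 of 16 higher, 6 lower and 3 not passed (median 0.05). Acta2, the smooth muscle actin that marks these cells, did not pass at 436, 292, 294 and 532 CPM at day 0 and 283, 293, 292 and 330.0 CPM at day 5 (log2 fold change -0.39). It was lower in a fit of all 28 libraries (-0.37, adjusted p = 0.00931) and without day 0 replicate 2 or 3 (-0.50 and -0.50, adjusted p = 0.0418 and 0.0431). Without day 0 replicates 1 and 4 the value was 0.06 (adjusted p = 0.54), and without replicates 2 and 3 it was -0.70 (adjusted p = 0.000379). Among the members that fell were Cnn1 by 2.07, Tpm2 by 2.15 and Actg2 by 1.85. Among those that rose were Lrrc15 by 2.04 (2.73 without day 0 replicate 1), Cdh11 by 1.64 and Itga5 by 1.62. Genes of pericytes and vascular smooth muscle fell in 7 of 13 cases, rose in 2 and did not pass in 4 (median -0.66), and Myh11, the smooth muscle myosin, fell from 290.3, 263, 246 and 399 to 67.6, 81.6, 75.5 and 51.7 CPM. Acta2 was measured together with the muscle of the vessels, hair and panniculus, and what each gave to its level was not tested.

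Dermal fibroblast subtype genes gave 4 of 23 higher, 7 lower and 12 not passed (median -0.25). These shares were near those over all genes, and the sign of the list's median depended on the day 0 libraries. Without replicates 1 and 4 the list gave 6 higher and 13 lower (median -0.31), and without replicates 2 and 3 it gave 11 higher and 6 lower (median 0.40). Over all genes the same settings gave 4788 higher and 4720 lower of 17388, and 4288 higher and 4309 lower of 17249. Penk fell by 2.39 and Pdgfra, the receptor that marks fibroblasts, rose by 0.90. Endothelial and angiogenesis genes rose in 20 of 31 cases, fell in 3 and did not pass in 8 (median 0.68). Pecam1, on all endothelium, went from 203, 219, 197 and 176 to 329, 331, 309.6 and 295 CPM. The tip cell genes Esm1 and Apln rose by 2.65 and 2.10 and the apelin receptor Aplnr by 2.28 (SE 0.22), while Prox1, of lymph vessels, fell by 1.38. Growth factors of repair were even, 13 of 36 higher, 12 lower and 11 not passed (median -0.11). Inhba, the activin A chain, moved most, from 4.18, 3.85, 4.89 and 5.33 to 36.3, 35.9, 33.99 and 31.4 CPM. Hgf rose by 1.19 and Tgfb1 by 0.89, and Igfbp2 fell by 2.15 and Fgfr2 by 1.65.

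Keratinocyte genes of the wound edge were mostly higher and those of the resting basal layer mostly lower. Of 35 wound edge genes 22 rose, 3 fell and 10 did not pass (median 1.58). Where at least 10 counts were asked in every library, 30 were tested, 17 rose and the median was 0.61. Krt16 stood at 56.8, 10.5, 11.4 and 21.7 CPM in day 0 replicates 1 to 4 and at 467, 337, 465 and 502 CPM at day 5, and its partner Krt6a rose by 2.92 (SE 0.53). Without day 0 replicate 1, the highest of that day, Krt16 rose by 4.92 instead of 4.13 and Krt6a by 3.57. Sprr2d, a small proline-rich protein of the cornified envelope, went from 0.598, 0.331, 0.392 and 0.662 to 67.4, 53.7, 71.8 and 73.8 CPM. The Sprr2 genes are near-identical copies, so how reads were divided among them is uncertain. Krt17, which hair follicles also make, was among the members that fell, by 0.50. Of 16 basal epidermis genes 1 rose, 11 fell and 4 did not pass (median -1.05). Krt15, of resting basal and bulge cells, fell from 1114, 948, 966 and 1437 to 221, 215, 228 and 234 CPM, Trp63 fell by 1.38 and Krt5 by 1.10, and Krt14 did not pass. The log2 fold change of Krt14 was 0.99 (adjusted p = 3.87e-06) without day 0 replicates 1 and 4 and -0.28 (adjusted p = 0.0517) without replicates 2 and 3.

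Genes of the differentiated epidermis went both ways, 14 of 46 higher, 18 lower and 14 not passed (median -0.20). Krt10, of the spinous layer, fell by 0.87 and Krt77 by 1.49, while Krt1 did not pass, lying between 428 to 588 CPM at day 0 and between 556 to 618 CPM at day 5. Without day 0 replicate 4 Krt1 was higher (log2 fold change 0.30, adjusted p = 0.0362). Elovl4, which builds the very long fatty acids of barrier lipids, went from 1216, 1213, 1133 and 1507 to 311, 313, 349.7 and 317 CPM. Where at least 10 counts were asked in every library, 8 members rose. The late cornified envelope genes are near-identical copies whose reads may be divided uncertainly. Lce3a and Lce3e, of the damage-induced Lce3 group, had at most 2 counts per day 0 library and were at least 28.9-fold and 26.2-fold higher at day 5, whereas Lce1m of the constitutive group fell by 1.42. Rptn, repetin, rose by 1.75, with day 0 libraries at 10.2, 45.8, 45.01 and 7.78 CPM.

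Hair genes fell furthest. Of 41 tested genes of the hair shaft and inner root sheath 0 rose, 39 fell and 2 did not pass, with a median of -6.24, or -5.21 without day 0 replicate 1. Krt25, a keratin of the inner root sheath, stood at 414, 119, 107 and 52.5 CPM in day 0 replicates 1 to 4 and at 3.52, 2.19, 3.38 and 4.61 CPM at day 5. Krt71 went from 603, 189.5, 174 and 79.4 to 4.39, 2.55, 4.45 and 4.32 CPM, and the shaft keratin Krt34 fell by 7.52 (SE 1.02). Without day 0 replicate 1 the log2 fold changes were -4.78 for Krt25, -5.25 for Krt71 and -6.41 for Krt34, and without day 5 replicate 4 that of Krt34 was -8.23. Day 0 replicate 1 held the most and replicate 4 the least of each, and the 4 libraries of each day did not overlap. Where at least 10 counts were asked in every library, 15 members fell, since most have almost none at day 5. Wnt, hedgehog and BMP genes, which steer the follicle, fell in 28 of 35 cases and rose in 0, with 7 not passed (median -1.02). Lef1, the transcription factor of the hair matrix, fell by 2.20, Wnt10b by 1.88 and Axin2, a target of the pathway, went from 43.6, 43.1, 45.6 and 45.7 to 14.2, 17.2, 15.2 and 14.1 CPM. Sebaceous gland genes gave 4 of 20 higher, 12 lower and 4 not passed (median -1.12). Scd3 fell from 274, 374, 346 and 270.0 to 56.9, 56.3, 58.4 and 49.2 CPM, and the melanocortin receptor Mc5r fell by 2.21. Plin5 and Cidea, also genes of brown fat, were among the members that rose. Melanocyte genes gave 1 of 11 higher, 8 lower and 2 not passed (median -1.67, or -1.13 without day 0 replicate 1). Their median was -0.87 without day 0 replicates 1 and 4 and -2.37 without replicates 2 and 3. By limma on FPKM it was -0.36, with 5 members lower. Tyrp1 fell by 1.83 and the melanocyte and Schwann cell factor Sox10 by 2.26. Without day 0 replicate 1 the log2 fold change of Tyrp1 was -1.04. Ednrb, which endothelium also carries, was the member that rose.

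Skeletal muscle genes fell in 32 of 39 cases and rose in 6, with 1 not passed (median -2.28). The fast myosin Myh4 stood at 8027, 4460.4, 4440.0 and 8557 CPM in day 0 replicates 1 to 4 and at 1117, 1157, 1033 and 947 CPM at day 5. Acta1, the skeletal actin, fell by 2.16 and Pvalb, a calcium buffer of fast fibres, by 3.05. Among the members that rose were genes known from slow fibres, Myh7 from 1.30, 8.94, 9.15 and 7.34 to 19.4, 21.9, 17.6 and 15.3 CPM, Tnnc1 by 1.56 and Myl2 by 1.25. Myh7 did not pass without day 5 replicate 1 or 2 (adjusted p = 0.0514 and 0.058), nor Myl2 without day 5 replicate 4 (adjusted p = 0.0578). The giant protein titin, Ttn, had its lowest day 5 value in replicate 4, at 214, 222, 197 and 94.6 CPM in replicates 1 to 4. Muscle regeneration genes gave 1 of 22 higher, 9 lower and 12 not passed (median -1.02), and this direction depended on the day 0 libraries. The median was -0.53 without day 0 replicate 1 and -0.31 by voom. Without day 0 replicates 1 and 4 the count was 11 higher and 7 lower (median 0.75), and without replicates 2 and 3 it was 1 higher and 17 lower (median -1.27). Myh3, the embryonic myosin of new fibres, stood at 23.3, 0.255, 0.444 and 8.53 CPM in day 0 replicates 1 to 4 and at 12.8, 14.3, 13.4 and 12.7 CPM at day 5, and did not pass, though it did by voom (log2 fold change 2.59, adjusted p = 0.0387). Its log2 fold change was 0.71, against 2.12 without day 0 replicate 1 and 5.27 (adjusted p = 5.56e-09) without replicates 1 and 4. Genes of muscle atrophy and denervation gave 5 of 18 higher, 7 lower and 6 not passed (median -0.18), and Mstn, myostatin, fell from 144, 78.7, 77.3 and 146 to 11.3, 13.8, 13.03 and 11.9 CPM. The median of these was 0.19 without day 0 replicate 1 and 0.13 by voom. Their count was 10 higher and 5 lower without day 0 replicates 1 and 4 and 4 higher and 10 lower without replicates 2 and 3. Schwann cell and nerve genes fell in 15 of 20 cases, rose in 1 and did not pass in 4 (median -1.27).

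Of 21 tested genes of brown and beige adipocytes 12 rose, 2 fell and 7 did not pass (median 0.98). Ucp1, the uncoupling protein that makes heat in brown fat, stood at 0.156, 0.382, 1.28 and 1.02 CPM in day 0 replicates 1 to 4 and at 1687, 1757, 1798 and 1992 CPM at day 5. Its log2 fold change of 11.30 (SE 0.49, adjusted p = 3.51e-07) was the largest of all 16690 genes. Otop1, a proton channel, went from 0.494, 0.688, 0.680 and 1.19 to 44.3, 48.4, 42.5 and 49.4 CPM. The carboxypeptidase subunit Cpn2 went from 0.390, 0, 0.183 and 0.166 to 22.9, 22.02, 21.2 and 20.6 CPM (log2 fold change 6.84, or 7.51 without day 0 replicate 1). Glycerol kinase, Gk, which lets fat cells reuse glycerol, went from 16.1, 12.6, 12.7 and 16.6 to 146, 138, 156 and 148 CPM. Cidea, of lipid droplets, rose by 2.14. Regulators of the brown fate did not pass: Prdm16 lay at 8.68 to 11.6 CPM at day 0 and 10.6 to 14.6 CPM at day 5, Ppargc1a at 7.82 to 13.9 and 10.5 to 15.2, and Zic1, a mark of the classical depot, at 20.6 to 31.02 and 23.5 to 26.6. These 3 were chosen after their values were seen. For Zic1 the log2 fold change was -0.28 (adjusted p = 0.0142) without day 0 replicates 1 and 4 and 0.16 (adjusted p = 0.195) without replicates 2 and 3. With the length trend of day 5 replicate 4 taken out both Ppargc1a and Prdm16 passed (log2 fold change 0.43 and 0.37, adjusted p = 0.0482 and 0.0238), as they did with the trend of every library taken out (adjusted p = 0.0195 and 0.0151) and in a fit of all 28 libraries (0.0313 and 0.0166). Prdm16 also passed by DESeq2 (adjusted p = 0.0491). Ppargc1a passed without day 0 replicate 4 (log2 fold change 0.52, adjusted p = 0.0366) and Prdm16 without day 5 replicate 4 (0.40, adjusted p = 0.0323). Elovl3, which cold induces in brown fat and sebaceous glands use at rest, fell by 0.56, and without day 0 replicates 2 and 3 it did not pass (-0.24, adjusted p = 0.0632). White adipocyte genes gave 10 of 23 higher, 4 lower and 9 not passed (median 0.08). Adipoq, adiponectin, did not pass at 490.4, 611, 583 and 622 CPM at day 0 and 521, 493, 487 and 565 CPM at day 5 (log2 fold change -0.17), and was lower with the length trend of day 5 replicate 4 taken out (adjusted p = 0.0443), in a fit of all 28 libraries (adjusted p = 0.0409) and without day 0 replicate 1 (-0.25, adjusted p = 0.0443). The leptin gene Lep fell from 30.6, 42.6, 43.6 and 61.6 to 9.88, 10.3, 10.5 and 12.8 CPM, while Gpd1, the glycerol-3-phosphate dehydrogenase, rose by 2.55 and Mest, a gene of fat cell expansion, by 3.15.

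Among metabolic programs, glycolysis and hypoxia genes gave 20 of 33 higher, 6 lower and 7 not passed (median 0.59). The glucose transporter Slc2a3 went from 8.70, 7.39, 7.87 and 8.77 to 61.5, 56.1, 59.5 and 59.05 CPM, and Pfkl, the phosphofructokinase of liver and immune cells, rose by 2.14. The muscle isoforms Pfkm and Eno3 fell by 2.39 and 2.42, and sarcomere genes fell in the same libraries. Nuclear-encoded respiratory chain genes rose in 35 of 61 cases, fell in 3 and did not pass in 23, by small amounts (median 0.33). Cycs, cytochrome c, rose by 1.04 and Cox6a2, a cytochrome c oxidase subunit of muscle, fell by 2.31. Without day 5 replicate 4 the number that fell was 5. The count was 43 higher without day 0 replicates 1 and 4 and 23 higher without replicates 2 and 3. Synthesis of fatty acids and cholesterol fell in 21 of 32 cases, rose in 6 and did not pass in 5 (median -0.69). The cholesterol enzyme Msmo1 fell by 1.96, whereas Acaca and Fasn, which start fatty acid synthesis, rose by 1.37 and 1.02.

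Ribosomal protein genes fell in 48 of 61 cases and rose in 0, with 13 not passed, with a median log2 fold change of -0.35 and a lowest of -0.59. Rps6 stood at 1133, 1061, 1073 and 1032 CPM at day 0 and 722, 809, 725 and 925 CPM at day 5. The mean log2 CPM of the list was 9.12 to 9.14 in day 5 replicates 1 to 3 and 9.38 in replicate 4, the library that held more of short genes. The count of ribosomal genes that fell was 33 to 34 without any of replicates 1 to 3, 56 without replicate 4 and 59 with its length trend taken out.

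Stress genes were led by the cystine transporter Slc7a11, which went from 1.69, 1.22, 0.706 and 2.10 to 62.3, 55.3, 60.3 and 45.9 CPM (log2 fold change 5.28). Of 32 genes of the unfolded protein and amino acid responses 18 rose, 4 fell and 10 did not pass (median 0.38). The chaperone Hspa5 rose by 0.83, Chac1 fell by 1.87 and Atf4, the factor of the amino acid response, did not pass (log2 fold change -0.03). Immediate-early factors gave 14 of 25 higher, 4 lower and 7 not passed (median 0.42), where Fosl1 rose by 2.21 and Egr3 fell by 1.33. Heat shock genes gave 5 of 14 higher, 6 lower and 3 not passed (median -0.22). Hsp90aa1 rose by 0.78, and Cryab, abundant in muscle, fell by 1.45. Clock genes gave 2 of 18 higher, 6 lower and 10 not passed (median -0.74), and Nfil3 rose by 1.18. Without day 5 replicate 1, 2 or 3 the count of clock genes that fell was 3, and without day 0 replicate 4 it was 4 with a median of -0.31. Arntl and Dbp, which differed between the day 0 pairs, did not pass. The log2 fold change of Arntl was -1.18 (adjusted p = 1.5e-06) without day 0 replicates 1 and 4 and 1.06 (adjusted p = 0.00198) without replicates 2 and 3. That of Dbp was -1.0, or -0.33 without day 0 replicate 4, 1.18 (adjusted p = 7.49e-06) without day 0 replicates 1 and 4 and -1.83 (adjusted p = 7.02e-06) without replicates 2 and 3, and Dbp passed as lower in a fit of all 28 libraries (-0.99, adjusted p = 0.0317). Without replicates 1 and 4 the count of clock genes was 7 higher and 5 lower, against 5 higher and 13 lower without replicates 2 and 3. Red blood cell genes gave 6 of 8 higher, 0 lower and 2 not passed (median 2.37). Hbb-bs rose by 2.40, and the globin copies share reads. Metallothionein and iron genes gave 12 of 17 higher, 3 lower and 2 not passed (median 1.19). The hemopexin gene Hpx rose from 0.0780, 0.229, 0.392 and 0.248 to 11.7, 9.37, 11.6 and 12.04 CPM, and the heme oxygenase Hmox1 rose by 2.83, while Mt4, the metallothionein of stratified epithelium, fell by 3.15.

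Day 5 was also set against its neighbours in time, in a fit of days 3, 5 and 7 (16973 genes). Both comparisons use the same day 5 libraries. Against day 3, 2658 genes (15.7%) were higher and 2452 (14.4%) lower, and against day 7, 2843 (16.8%) were higher and 2772 (16.3%) lower. Of the neutrophil genes, 14 of 21 were lower than at day 3 and 2 higher, while 17 were higher than at day 7 and 0 lower. S100a8 was lower than at day 3 by a log2 difference of -1.39 and higher than at day 7 by 1.23. Cytokine genes gave 22 of 37 lower than at day 3 and 5 higher, and 29 higher than at day 7 and 4 lower. Il6 differed by -2.12 from day 3 and by 2.80 from day 7. Nos2 was instead higher than on either side, by 1.54 and 3.31, and Chil3 by 1.21 and 4.17. Antimicrobial genes were lower than at day 3 in 14 of 19 cases and higher in 0, and higher than at day 7 in 13 and lower in 1.

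Of 30 collagen genes 22 were higher than at day 3 and 4 lower, and 23 were lower than at day 7 and 3 higher. Col1a1 differed by 1.10 from day 3 and by -0.55 from day 7, although it did not pass against day 0. Postn differed by 1.79 and -1.37, and Lrrc15 by 2.82 and -1.64. Prss35 differed by 6.01 and -3.54. Dermal fibroblast subtype genes gave 17 of 23 higher than at day 3 and 0 lower, and 1 higher than at day 7 and 18 lower. Wnt, hedgehog and BMP genes gave 19 of 35 higher than at day 3 and 1 lower, and 1 higher than at day 7 and 26 lower. In each of these lists the median difference was above 0 against day 3 and below 0 against day 7. Myh3 was higher than at day 3 by 5.57 (adjusted p = 3.40e-13), a comparison that does not use the divided day 0 libraries. Hair genes gave 14 of 42 higher than at day 3 and 1 lower (median difference 0.80), and were lower than at day 7 in 42 of 42 cases, with Krt25 differing by -6.14. Of the mitosis genes, 7 of 27 were lower than at day 3 and 0 higher, and 1 was lower than at day 7 and 0 higher. Ucp1 was higher than at day 3 by 1.01 and than at day 7 by 1.70. Glycolysis and hypoxia genes were higher than at day 7 in 28 of 33 cases and lower in 2, while against day 3 they gave 7 higher and 8 lower.

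**Figure D5:**
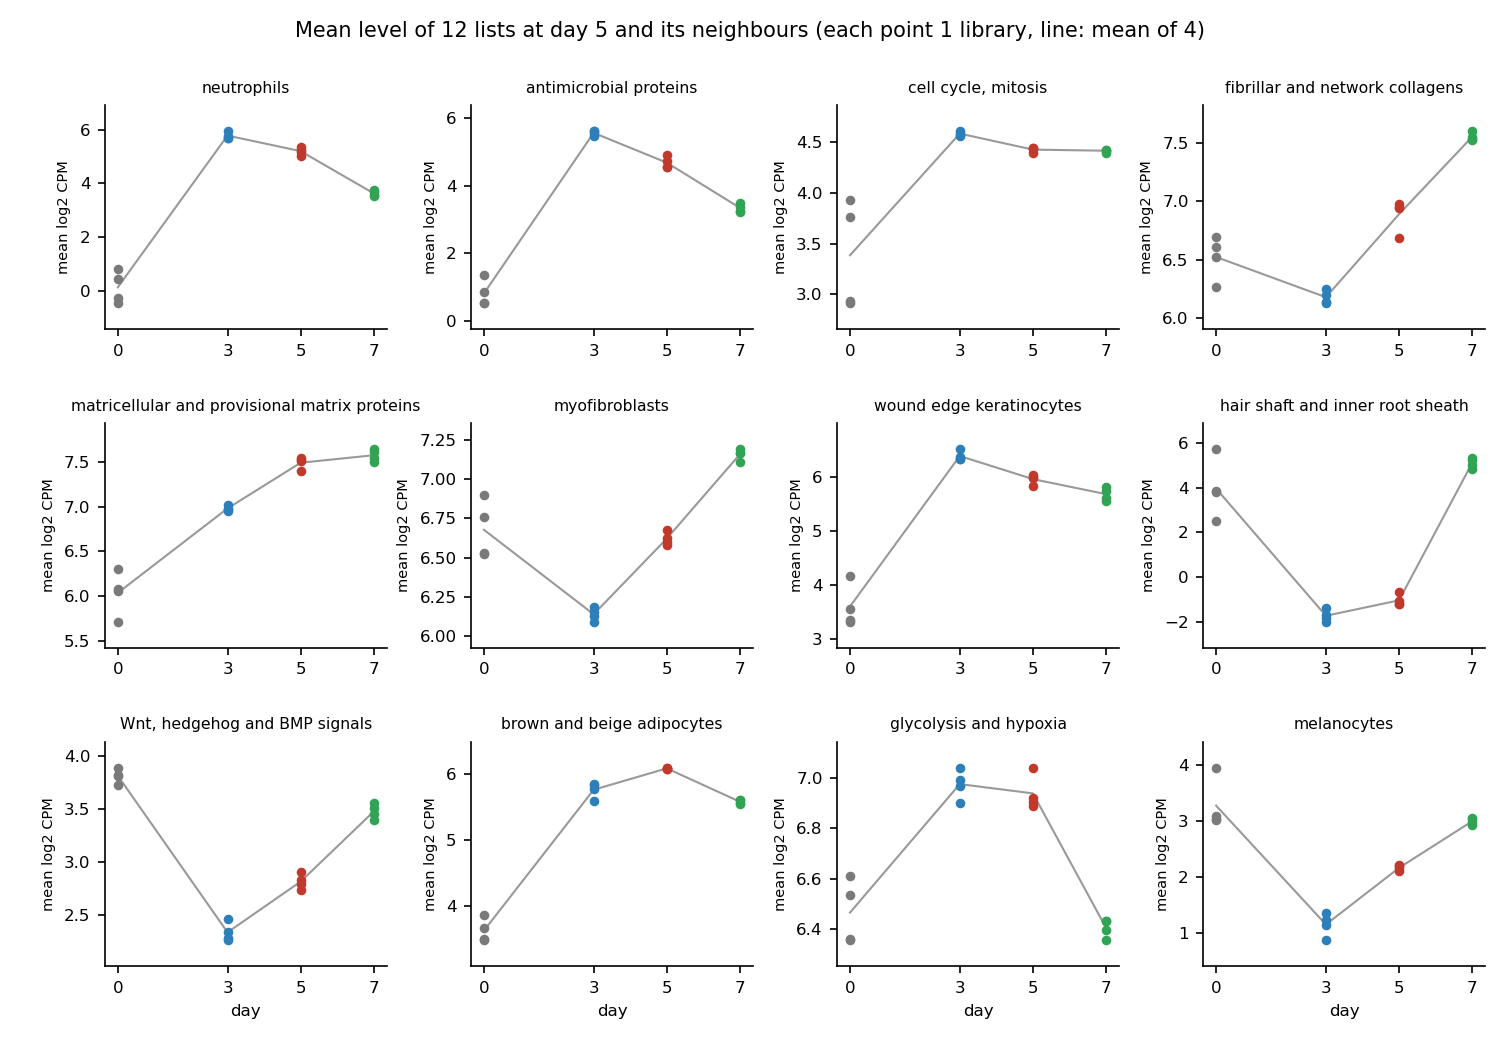
Mean log2 CPM (y axis) of 12 lists against the day (x axis, days 0, 3, 5 and 7), with each library as a point and a line through the means of 4. Neutrophil and antimicrobial genes are highest at day 3, collagen and myofibroblast genes at day 7, and the brown and beige adipocyte list is highest at day 5.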

How the data were processed

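Total RNA of wound skin was extracted with TRIzol and sequenced after library preparation with a VAHTS kit. Per the labels, reads were trimmed with fastp and placed on mm10; the aligner, the counter, its strand setting and the annotation are not given in the sources used here. The authors deposited counts per gene, which were whole numbers and not normalized, and FPKM per gene. Both are tables of all 28 libraries, 29068 genes long, of which 347 had no count in any library.

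Counts were filtered (filterByExpr), scaled by TMM and fitted with edgeR 4.0.16 (R 4.3.3, limma 3.58.1) by the quasi-likelihood test, without covariates, on the 4 day 0 and 4 day 5 libraries, and on days 3, 5 and 7 for the neighbours. Adjusted p-values are Benjamini-Hochberg values over all genes of a fit. CPM use TMM over the 28 libraries, and FPKM entered only as log2(FPKM + 1) in an alternative. DESeq2 1.42.0, voom, other scaling, filters and covariates, length correction and leaving out libraries were alternatives. The study itself used DESeq2. The procedure was also run on simulated counts. These had the same spread on both days, so they do not test the unequal spread found here. Depth was 36706513 to 40492661 counts, and counting error weighs most on genes of few counts.

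The members and lists were chosen with earlier results of these data known. Genes were named by list key genes, the 3 largest increases and decreases of each list, the 15 largest over all genes, the study's measured proteins and the largest differences from days 3 and 7. That rule selects 395 genes, of which 173 have values here, chosen for their roles; 3 more (Prdm16, Ppargc1a and Zic1) lay outside it. The other named genes are not reported here. Leaving out the day 0 pairs was added after the data were seen. Promoters are RefSeq windows of GRCm38.p6.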

Additional observations from a re-analysis of the deposited data

Results flagged for a closer look

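The highest or lowest library of a group of 4 was tested for its distance from the others, for each gene with values in the text (Dixon's test on log2 CPM). It stood apart in 36 of 352 groups, and chance gives about 18, or 1 in 20. Day 5 replicate 4, the library with the gene length trend, accounted for 20 of them. In log2 CPM, this library was low for Acaca (8.74, others 9.28 to 9.38), C3 (10.5, others 10.9 to 11), Col12a1 (8.58, others 9.24 to 9.36), Col24a1 (2.91, others 3.21 to 3.26), Fasn (11.2, others 11.7 to 11.7), Fn1 (10.1, others 10.8 to 10.9), Mki67 (6.13, others 7.01 to 7.06), Ppargc1a (3.4, others 3.89 to 3.93), Tnc (9.39, others 9.8 to 9.86) and Ttn (6.56, others 7.62 to 7.79). It was high for C5ar1 (6.89, others 6.69 to 6.7), Cfd (10.7, others 10.4 to 10.4), Cidea (8.73, others 8.47 to 8.52), Cryab (6.79, others 6.4 to 6.46), Eno3 (7.56, others 7.23 to 7.28), Gsdmd (5.37, others 5.24 to 5.26), Hmox1 (9.2, others 8.95 to 8.97), Itga5 (7.45, others 7.4 to 7.4), Krt34 (-1.32, others -2.96 to -2.69) and Trp53 (6.01, others 5.72 to 5.76).

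Day 0 replicate 1 stood apart in log2 CPM for Gpd1 (8.44, others 8.85 to 8.93), Loxl3 (3.49, others 3.11 to 3.17), Myh7 (0.433, others 2.89 to 3.2) and Saa2 (0.0537, others -4.3 to -3.68). Day 0 replicate 3 stood apart in log2 CPM for Lce1m (7.67, others 7.3 to 7.35). Day 0 replicate 4 stood apart in log2 CPM for Fgfr2 (7.31, others 6.87 to 6.91), Hbb-bs (6.54, others 7.08 to 7.14), Krt17 (8.39, others 8.77 to 8.78) and Tnf (1.5, others 0.792 to 0.862). Day 5 replicate 1 stood apart in log2 CPM for Acod1 (7.8, others 7.66 to 7.68) and Elovl3 (5.77, others 5.99 to 5.99). Day 5 replicate 2 stood apart in log2 CPM for Hpx (3.24, others 3.54 to 3.6), Krt1 (9.12, others 9.25 to 9.27) and Krt71 (1.38, others 2.13 to 2.17). Day 5 replicate 3 stood apart in log2 CPM for Elovl4 (8.45, others 8.28 to 8.31) and Ptgs1 (4.99, others 5.06 to 5.07).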

How the results depend on the processing

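Of 156 recomputed counts of genes (higher and lower at day 5 against days 0, 3 and 7), 150 stayed within 1.5 times of the reported count. The other 6 concern the study's criteria: genes higher numbered 797, and 1405 without a filter on low counts, 460 with at least 10 counts in every library and 347 by limma on log2(FPKM + 1), which changes both the test and the measure. Genes lower numbered 1244, and 1906, 826 and 374. Against day 0, leaving out 1 library gave 3365 to 3930 genes higher and 3863 to 4465 lower. DESeq2 gave 4306 higher and 4364 lower. With the length trend of day 5 replicate 4 taken out there were 4047 higher and 4673 lower.

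Replicate numbers are shared between the days, and a fit with the replicate block gave 3636 genes higher and 4017 lower. The deviations of same-numbered libraries correlated at -0.026, 0.061, 0.024 and -0.0099, and those of differently numbered libraries at -0.089 to 0.12. No pairing was used, and whether same-numbered libraries share a batch was not tested.

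Of 3854 recomputed log2 fold changes of the 176 genes with values, 4 reversed with a call, all in the settings added after seeing the data: without day 0 replicates 2 and 3 Arntl came to 1.065, Col1a1 to 0.92 and Lyve1 to 0.36, and without day 0 replicates 1 and 4 Dbp came to 1.18. The cause was not tested beyond that these pairs differ in the same genes at day 0. Of genes that had not passed, 6 (Acta2, C3, Gapdh, Krt14, Mcm2 and Zic1) changed sign by more than a standard error without passing in one of these settings and passed in the other, and Atf4, Col1a1, Myh3 and Trp53 did so by less in some setting. Leaving out one or the other of these pairs moved the fold of 60 genes by over 1.5 times. In 25 cases, from 7 genes, a call was lost, and in 46 a gene that had not passed did. Depth limits the genes of few counts, such as Krt34 at day 5.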
